A study of Mus musculus with 6 samples.

Results

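The guanylate-binding proteins (GBPs) and the immunity-related GTPases (IRGs) are 2 families of interferon-inducible GTPases, and 10 of their mouse genes were followed here among the 35709 genes of the deposited table. The GBP genes were Gbp2, Gbp3, Gbp4, Gbp6, Gbp7 and Gbp10, and the IRG genes were Irgm1, Irgm2, Igtp and Iigp1. They were found by symbol (GENCODE M21, GRCm38), and all 10 were in the table. RNA-seq libraries came from AML12 cells, a hepatocyte line made from the liver of a mouse with a transforming growth factor alpha transgene. The cells had received an siRNA against Uhrf2 (siUhrf2, 3 libraries) or a scrambled siRNA (siCtrl, 3 libraries) for 72 h, in both groups with Lipofectamine RNAiMAX and with no interferon named in the labels. The labels do not say whether the replicates were separate cultures, so the p-values below measure only the spread between these libraries. The genes were selected on the siUhrf2 against siCtrl values of these same libraries, so their own differences between the groups are a description without a p-value.

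Both families act inside the cell. Interferon gamma binds its receptor, JAK kinases pass the signal on, and transcription factors such as IRF1 switch on GBP and IRG genes. GBPs are large GTPases of the dynamin superfamily that polymerise on pathogen vacuoles and on bacterial surfaces, and IRG effectors such as Iigp1 coat and rupture vacuoles. Irgm1, Irgm2 and Igtp are the regulatory IRGs, which sit on cellular membranes and keep the effectors inactive there. A signature of the regulatory class is a methionine in the nucleotide-binding P loop, where other members of both families have a lysine.

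That signature is shown for the 6 members with usable levels, because it separates the 2 functional classes among them. Each line gives the stretch of coding sequence around the P loop in the longest reading frame of the GENCODE M21 transcripts, with the codon for the methionine or lysine in capitals:
Irgm1: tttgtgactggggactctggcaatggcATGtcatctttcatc
Irgm2: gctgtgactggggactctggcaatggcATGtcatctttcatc
Igtp: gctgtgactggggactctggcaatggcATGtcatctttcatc
Gbp4: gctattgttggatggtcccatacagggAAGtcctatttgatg
Gbp6: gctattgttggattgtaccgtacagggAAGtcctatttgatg
Gbp10: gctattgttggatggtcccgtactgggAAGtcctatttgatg
All 3 regulatory IRGs had the methionine codon, and the other 7 members had the lysine codon. The stretches of Igtp and Irgm2 differed at 0 of 42 bases, and each differed from Irgm1 at 2. Gbp4 differed from Gbp10 at 2 bases and from Gbp6 at 3. The Irgm1, Irgm2 and Igtp stretches lie in exon 3 at chr11:48866752-48866793 (minus strand), chr11:58219686-58219727 (plus strand) and chr11:58206266-58206307 (plus strand). Those of Gbp4, Gbp6 and Gbp10 lie in exon 2 at chr5:105136863-105136904, chr5:105290862-105290903 and chr5:105235976-105236017, all on the minus strand.

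The targeted gene was reduced. Uhrf2, which encodes a ubiquitin ligase that binds modified DNA, averaged 2841 ± 88.2 normalized counts in siUhrf2 and 8992 ± 82.6 in siCtrl (SD, n = 3 each; limma log2 change -1.66, SE 0.034, adjusted p = 7.58e-11), and p = 0.10 in an exact permutation test, two-sided, is as small as 3 against 3 libraries can give. Library depth, recovered from the value of a single read, was 44.6 to 49.3 M estimated reads in siUhrf2 and 46.4 to 53.1 M in siCtrl, lowest in the library numbered 1 of each group. Those libraries stood apart from the others of their group. Pairs that included library 1 differed by a chi-square per degree of freedom of 8.73 to 9.69 in siUhrf2 and 6.17 to 8.49 in siCtrl, against 2.83 and 3.62 for libraries 2 and 3. The fit held 11343 genes that averaged 1 FPKM or more, a read count scaled to transcript length and depth. Of these, 61.0% were called at a limma adjusted p under 0.05, 31.1% as lower and 29.9% as higher in siUhrf2, with a median log2 difference of -0.01.

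Of the 10 members, 6 reached a mean of 1 FPKM over the 6 libraries: Gbp4, Gbp6, Gbp10, Irgm1, Irgm2 and Igtp. Gbp10 lay just inside that limit at 1.44 FPKM and Gbp2 just outside it at 0.501 FPKM. Gbp4 and Gbp10 passed it only through siCtrl. Gbp4 had 0.953 FPKM in siUhrf2 and 3.95 FPKM in siCtrl, and Gbp10 had 0.921 and 1.96 FPKM. All 6 were lower in siUhrf2 at the adjusted p under 0.05 that 31.1% of all tested genes passed in that direction (61.0% in either), and nothing is read from that count. The groups did not overlap in any of the 6, as in 34.1% of all tested genes in that direction and 66.7% in either. Irgm1 was by far the most abundant and differed least, and Gbp4 differed most.

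Gbp4 showed the widest gap. Its siUhrf2 libraries held 90.4, 115 and 133 normalized counts, against 349.8, 579.7 and 461 in siCtrl. The highest siUhrf2 library stayed far under the lowest siCtrl library, and 24.4% of the siCtrl mean was left, a log2 difference of -2.02 (SE 0.20). The gene lies on the minus strand of chromosome 5 from 105115767 to 105139586 (GRCm38), where it overlaps Gbp8 and Gbp9 on the same strand.

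Gbp6 and Gbp10, neighbours of Gbp4 in the same cluster, are known in mouse macrophages for restricting intracellular bacteria. Gbp6 had 422, 443 and 599 normalized counts in siUhrf2, against 834, 1141 and 1118 in siCtrl (log2 difference -1.08, SE 0.18). Gbp10 had 96.3, 104 and 88.0 normalized counts in siUhrf2, against 152, 252 and 204 in siCtrl (log2 difference -1.04, SE 0.17). Both were left at close to equal shares of their siCtrl means, 47.3% and 47.4%. Gbp10 spans 105215699 to 105239533 and Gbp6 spans 105270702 to 105293698, both on the minus strand of chromosome 5, and both overlap the annotated gene Gm43302 on that strand.

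Irgm1, which in mice keeps macrophages alive under interferon and acts on lysosomes and mitochondria, carried most of the signal. Its siUhrf2 libraries held 3742, 3888 and 3804 normalized counts, against 4938, 5125 and 5114 in siCtrl. The libraries within each group were close together, with a coefficient of variation of 1.92% in siUhrf2 and 2.08% in siCtrl, and 75.3% of the siCtrl mean was left (log2 difference -0.41, SE 0.033). Irgm1 lies on the minus strand of chromosome 11 from 48861968 to 48871683 and overlaps no other annotated gene.

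Irgm2 and Igtp, the other regulatory IRGs, showed larger gaps at lower levels. Irgm2, a Golgi-associated regulator, had 252, 206 and 208 normalized counts in siUhrf2, against 398, 369 and 423 in siCtrl (log2 difference -0.84, SE 0.10). Igtp, also called Irgm3 and found on the endoplasmic reticulum and lipid droplets, had 122, 109 and 77.3 normalized counts in siUhrf2, against 217, 238 and 217 in siCtrl (log2 difference -1.14, SE 0.16). Irgm2 kept 56.0% and Igtp 45.8% of the siCtrl mean. They lie on the plus strand of chromosome 11, Igtp from 58199556 to 58207591 and Irgm2 from 58199618 to 58222782, so that the annotated Irgm2 gene covers nearly all of Igtp.

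The remaining 4 members were listed at low levels in every library. Gbp2, which decorates vacuoles and is lipid-anchored to membranes, had 26.2, 41.7 and 60.4 normalized counts in siUhrf2, against 24.1, 56.3 and 39.9 in siCtrl. Gbp3 had 3.05 to 11.1 normalized counts in siUhrf2, against 2.09 to 11.1 in siCtrl. Gbp7 had 5.46 to 16.3 normalized counts in siUhrf2, against 8.37 to 25.8 in siCtrl, and the effector Iigp1 had 2.18 to 11.2 normalized counts in siUhrf2, against 9.65 to 18.6 in siCtrl. The groups overlapped in all 4 genes. Gbp2, Gbp3 and Gbp7 form the chromosome 3 cluster, between 142530342 and 142638008 on the plus strand, and Iigp1 lies on chromosome 18 from 60376027 to 60392634. The cells had no chromosome 3 GBP and no Iigp1 above 1 FPKM in any library, while the chromosome 5 and chromosome 11 genes were the ones with usable levels.

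**Figure D1:**
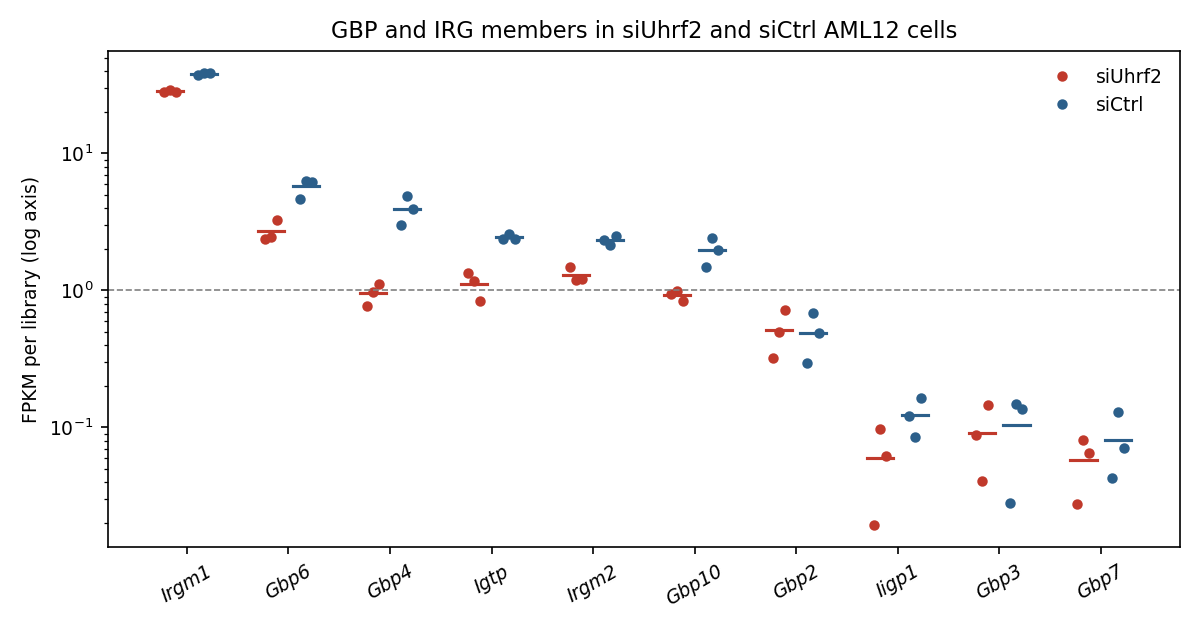
FPKM of each member in each library on a log axis, siUhrf2 (red) left of siCtrl (blue); horizontal bars are group means of 3 libraries and the dashed line marks 1 FPKM. Irgm1 lies near 28.4 FPKM in siUhrf2 and 38.1 in siCtrl, the next 5 genes lie between 0.773 and 6.34 FPKM, and Gbp2, Iigp1, Gbp3 and Gbp7 stay under 1 FPKM with overlapping groups.

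Per length, the order of the levels was partly settled by the spread. In siUhrf2 Irgm1 averaged 28.4 ± 0.374 FPKM and Gbp6 2.70 ± 0.516 FPKM (SD, n = 3), each clear of the next gene. Irgm2, Igtp, Gbp4 and Gbp10 followed at 1.29, 1.11, 0.953 and 0.921 FPKM in siUhrf2, each overlapping its neighbour in that order. In siCtrl Irgm1 averaged 38.1 ± 0.643 FPKM, Gbp6 5.75 ± 0.931 FPKM and Gbp4 3.95 ± 0.964 FPKM (SD, n = 3), and the ranges of Gbp6 and Gbp4 overlapped. Igtp, Irgm2 and Gbp10 had 2.45, 2.33 and 1.96 FPKM in siCtrl with overlapping ranges. Gbp4 overlapped Igtp and lay under Irgm2 in siUhrf2, while it stood above both without overlap in siCtrl.

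A sum over paralogs does not depend on how reads were divided among the genes in it. It still depends on reads shared with genes outside it. The 6 GBP members together had 647, 723 and 905 normalized counts in siUhrf2, against 1370.3, 2066 and 1847 in siCtrl, which left 43.0% of the siCtrl mean (log2 ratio -1.22). With the listed GBP genes outside the members added, the sum left 51.7% (log2 ratio -0.95). The 4 IRG members together had 4118, 4214 and 4096 normalized counts in siUhrf2, against 5566, 5742 and 5772 in siCtrl, which left 72.8% (log2 ratio -0.46). All 10 together averaged 4901 ± 122 normalized counts in siUhrf2 and 7454 ± 458 in siCtrl (SD, n = 3 each), a log2 ratio of -0.61, with no overlap between the groups. Irgm1 made up 76.1% to 78.8% of that total in siUhrf2 and 65.6% to 71.2% in siCtrl. Without it the log2 ratio of the other 9 was -1.14, and that of the other 3 IRG members was -0.94. Per length, the sums of the 10 were 35.6, 36.3 and 36.4 FPKM in siUhrf2, against 51.7, 57.9 and 56.3 FPKM in siCtrl.

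Within a group the members other than Irgm1, all with lower counts, varied more than Irgm1 did. The coefficient of variation of Gbp4, Gbp6 and Gbp10 was 19.0%, 19.8% and 8.14% in siUhrf2, and 24.8%, 16.6% and 24.8% in siCtrl. That of Igtp and Irgm2 was 22.2% and 11.8% in siUhrf2, and 5.57% and 6.81% in siCtrl. In siCtrl the spread expected from the mean count alone was 1.41% for Irgm1, where 2.08% was measured. It was 6.68% for Igtp and 5.02% for Irgm2, and 4.65%, 3.11% and 7.03% for Gbp4, Gbp6 and Gbp10. The measured value of Igtp lay under the expected one. The part of the count level in these spreads was not tested. In siCtrl, library 1 had the lowest value in 6 of 6 GBP members and in 1 of 4 IRG members. In siUhrf2, library 1 was lowest in 4 of 6 GBP members and in 2 of 4 IRG members. The same libraries had the lowest depth of their groups, and the part of depth in these differences was not tested. Without both libraries numbered 1, which was tried after the values were seen, the log2 differences were -2.05 for Gbp4, -1.13 for Gbp6, -1.24 for Gbp10, -0.41 for Irgm1, -0.93 for Irgm2 and -1.30 for Igtp.

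Family genes outside the 10 members were also measured and were not used to choose them. Their list, too, was made with earlier results of these data known. A list of 17 held 16 that were in the table. Tgtp1 reached a mean of 1 FPKM only through siCtrl, with 0.493 FPKM in siUhrf2 and 2.67 FPKM in siCtrl, so it is described without a test. Another 3 genes reached that mean, Gbp9, 9930111J21Rik2 and Irgq, and all 3 fell, where 31.1% of all tested genes did. Tgtp1, an IRG effector known as Irgb6, had 27.2, 46.0 and 23.1 normalized counts in siUhrf2, against 123, 184 and 209 in siCtrl (log2 difference -2.41, SE 0.27). Gbp9, which overlaps Gbp4, had 808, 857 and 918 normalized counts in siUhrf2, against 1152, 1394 and 1434 in siCtrl (log2 change -0.62, SE 0.083, limma adjusted p = 9.57e-05). The IRG-family gene 9930111J21Rik2 changed by -0.59 (SE 0.070, limma adjusted p = 1.98e-05) and the divergent IRG gene Irgq, on chromosome 7 away from the other genes, by -0.45 (SE 0.053, limma adjusted p = 2.28e-05).

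The other 12 of the 16 lay under 1 FPKM. Tgtp2, at 0.922 FPKM on average, had 15.4, 32.2 and 41.1 normalized counts in siUhrf2, against 108, 110.1 and 123 in siCtrl. Gbp8 had 27.3, 29.9 and 37.8 normalized counts in siUhrf2, against 85.9, 121 and 128 in siCtrl. Among these low genes the groups overlapped in Gbp2b, Gbp5, Gm4841, F830016B08Rik and Gm5431. They did not overlap in Tgtp2, Gbp8, Gbp11, 9930111J21Rik1 and Gm12185, all lower in siUhrf2. For genes under 1 FPKM, here and below, the share without overlap over all genes was not computed. Irgc1 went the other way, with 1.09, 2.03 and 2.01 normalized counts in siUhrf2, against 0, 0 and 0 in siCtrl, at the limit of detection. Gm4951, an IRG gene near Iigp1, was at 0 in all 6 libraries. Gbp5, an activator of inflammasomes in other cells, had at most 2.13 normalized counts in siUhrf2 and 1.84 in siCtrl.

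**Figure D2:**
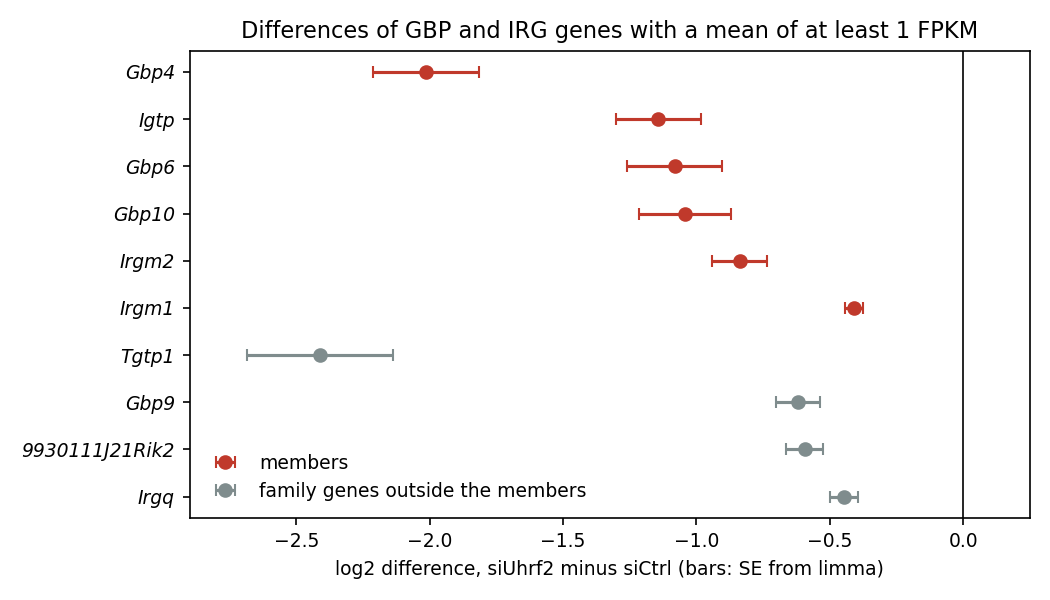
Log2 difference, siUhrf2 minus siCtrl, of normalized counts for the 6 members (red) and the 4 family genes outside them (grey) that averaged 1 FPKM or more; points are limma estimates and bars their SE. The points lie between -2.41 for Tgtp1 and -0.41 for Irgm1. The members were selected on these values, and Gbp4, Gbp10 and Tgtp1 averaged 1 FPKM or more only through siCtrl. Nothing is read from their shared direction, and 31.1% of all tested genes were called lower.

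How far these genes can be told apart by their reads differs widely. The transcripts annotated for each gene were divided into words of 31 bases, and 97.1% of the Irgm1 words were found in no other gene. The share was 89.3% for Irgm2, 84.1% for Igtp and 85.1% for Gbp4, but 25.8% for Gbp6 and 10.2% for Gbp10. Gbp10 shared 80.8% of its words with Gbp6, and Gbp6 shared 67.8% with Gm43302, which overlaps both. Gm43302, looked up for this reason after the values were seen, averaged 276 ± 60.9 normalized counts in siUhrf2 and 467 ± 113 in siCtrl (SD, n = 3 each). Gbp6, Gbp10 and Gm43302 together left 50.5% of the siCtrl mean, without overlap between the groups. The division of reads between Gbp6, Gbp10 and Gm43302 is uncertain, as is that between Tgtp1 and Tgtp2, which share 83.2% of the Tgtp1 words. Tgtp1 and Tgtp2 together had 42.5, 78.3 and 64.2 normalized counts in siUhrf2, against 231, 294 and 332 in siCtrl. Igtp shared 15.9% of its words with Irgm2, and together they left 52.3% of the siCtrl mean.

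**Figure D3:**
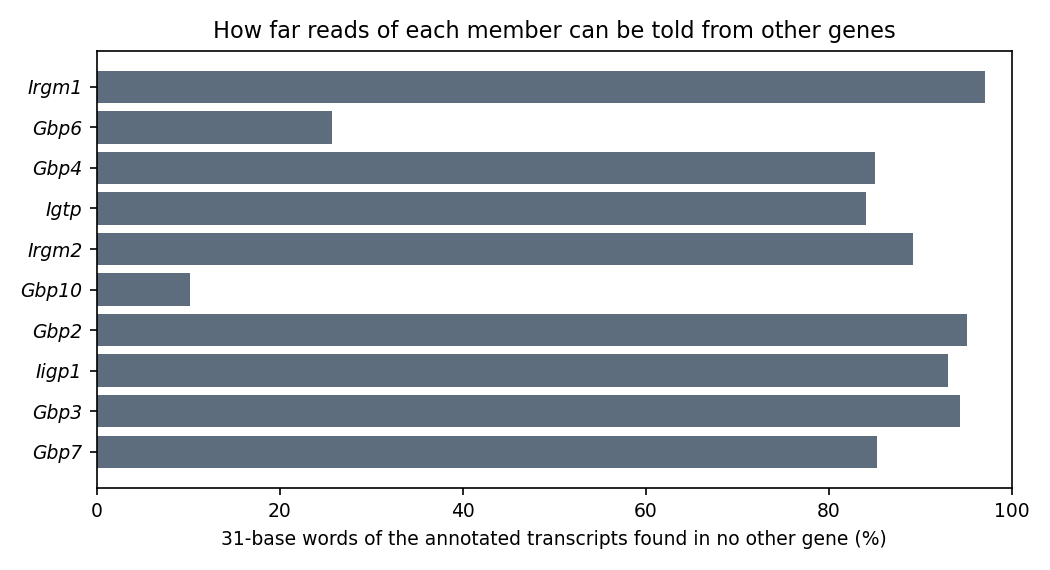
Share of the 31-base words in the annotated transcripts of each member that occur in no other gene, in percent, with members ordered by their siCtrl level. Irgm1 has 97.1%, while Gbp6 and Gbp10 have 25.8% and 10.2%.

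The promoters of the 3 regulatory IRGs are shown because GBP and IRG genes are known to be switched on through interferon response elements. RefSeq promoter entries (GRCm38.p6, 250 bases before to 50 after the start) were found for 6 of the 10 members. They belonged to Gbp2, Gbp3, Gbp7, Igtp, Irgm1 and Irgm2. Capitals mark matches on either strand to the interferon-stimulated response element, searched as GAAA, any 2 bases and GAAA again, and to the gamma-activated STAT site, searched as TTCNNNGAA:
Irgm1: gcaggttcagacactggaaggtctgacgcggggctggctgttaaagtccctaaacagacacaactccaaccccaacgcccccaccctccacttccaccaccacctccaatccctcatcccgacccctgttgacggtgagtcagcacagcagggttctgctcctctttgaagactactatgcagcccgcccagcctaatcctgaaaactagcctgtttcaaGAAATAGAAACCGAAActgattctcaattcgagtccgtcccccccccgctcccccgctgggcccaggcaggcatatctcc
Irgm2: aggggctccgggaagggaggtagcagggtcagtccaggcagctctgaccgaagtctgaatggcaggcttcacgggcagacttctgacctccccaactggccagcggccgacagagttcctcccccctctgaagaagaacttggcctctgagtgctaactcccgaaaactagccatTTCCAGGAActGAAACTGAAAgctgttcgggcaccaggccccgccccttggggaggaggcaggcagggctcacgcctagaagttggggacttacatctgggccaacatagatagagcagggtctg
Igtp: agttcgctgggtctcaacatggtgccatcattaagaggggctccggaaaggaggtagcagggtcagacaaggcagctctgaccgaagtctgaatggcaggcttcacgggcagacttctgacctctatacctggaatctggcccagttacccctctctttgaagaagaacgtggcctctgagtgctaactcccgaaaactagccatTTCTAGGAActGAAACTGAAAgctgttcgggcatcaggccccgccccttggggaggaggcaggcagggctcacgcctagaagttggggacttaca
These stretches are chr11:48871371-48871670 (minus strand), chr11:58214727-58215026 (plus strand) and chr11:58199306-58199605 (plus strand). Irgm1 held a pair of overlapping ISRE matches that begin 30 and 24 bases before the start and no GAS match. Igtp held a GAS match that begins 45 bases before the start and an ISRE match at 34, and Irgm2 held them at 75 and 64. The start is that of the RefSeq entry. The Irgm2 and Irgm1 entries lie inside the annotated genes, which span 58199618 to 58222782 and 48861968 to 48871683. The Igtp and Irgm2 promoters shared an identical run of 61 bases, against 11 bases between either of them and Irgm1.

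All 6 members with an entry held ISRE letters in one of their entries, and 3 of them (Gbp7, Igtp and Irgm2) held GAS letters, where 3.44% of all 32851 entries held the ISRE and 8.30% the GAS letters. Both motifs were present in 0.454% of all entries. After these promoters had been read, the arrangement of a GAS match, 2 bases and an ISRE match was searched as one pattern. It occurred in 5 of the 32851 entries, and those were the promoters of Igtp, Irgm2, Tgtp1, Tgtp2 and Gm12185, all IRG genes. A match is a description of the letters and not of binding, and copies of one ancestral promoter are not independent of each other.

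Of 21 listed receptors, kinases, STATs, IRFs and inhibitors, 16 averaged 1 FPKM or more. Among these 8 fell, 8 did not pass and 0 rose, where 31.1% of all tested genes were lower and 61.0% were called either way. Their median log2 difference was -0.11, against -0.01 for all genes tested. Irf1, the factor that acts directly on GBP promoters, had 2405, 2831 and 2661 normalized counts in siUhrf2, against 3136, 3843 and 3509 in siCtrl (log2 change -0.41, SE 0.084, limma adjusted p = 0.0039). All 3 siUhrf2 libraries were lower in Irf1 than any siCtrl library, as in 34.1% of all tested genes. Stat3, Irf9 and Jak2 changed by -0.75, -0.59 and -0.31, with limma adjusted p of 1.39e-06, 2.55e-05 and 8.89e-05.

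At the receptors, the ligand-binding chain Ifngr1 changed by -0.22 (limma adjusted p = 0.00055), while the second chain Ifngr2 had a difference of -0.10 (limma adjusted p = 0.11). Ifnar1, of the type I receptor, changed by -0.31 (limma adjusted p = 0.00017) and Irf2 by -0.12 (limma adjusted p = 0.045). The Irf2 call was lost without siUhrf2 replicate 1 or 2 or any 1 siCtrl replicate (limma adjusted p 0.054 to 0.14). Jak1 had 10050.2 ± 107 normalized counts in siUhrf2 and 9974 ± 103 in siCtrl (SD, n = 3 each), a difference smaller than the spread. The interferon genes Ifng and Ifnb1 and the factor gene Irf8 were at 0 in every library. Under 1 FPKM on average, the inhibitor Socs1 had 33.8, 40.7 and 56.4 normalized counts in siUhrf2, against 28.2, 25.8 and 31.6 in siCtrl, higher without overlap, and the groups overlapped in Nlrc5.

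**Figure D4:**
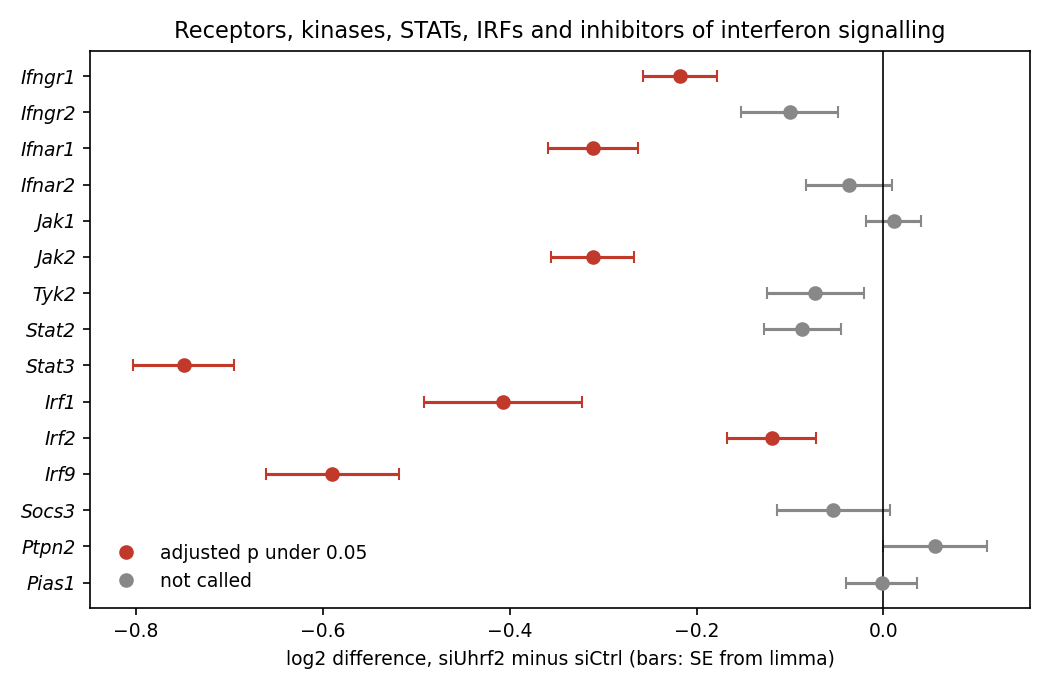
Log2 difference, siUhrf2 minus siCtrl, of 15 interferon signalling genes that averaged 1 FPKM or more; points are limma estimates, bars their SE, and red marks an adjusted p under 0.05. The 7 red points lie between -0.75 (Stat3) and -0.12 (Irf2), and no red point lies over 0.

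GBPs and IRGs work with autophagy proteins, which load them on vacuoles. Among 11 listed genes of ATG8 conjugation and GTPase loading, 6 fell, 4 did not pass and 1 rose, a share called near the 61.0% of all genes tested. Their median log2 difference was -0.20, against -0.01 for all genes tested. Atg7, the enzyme that activates ATG8 proteins, averaged 2742 ± 69.8 normalized counts in siUhrf2 and 4707 ± 92.3 in siCtrl (SD, n = 3 each; log2 change -0.78, limma adjusted p = 1.47e-08). The ATG8 genes Gabarapl2, Gabarap and Map1lc3b changed by -0.30, -0.28 and -0.27, and Atg5 was the riser at 0.12, a call lost without siUhrf2 replicate 2 (limma adjusted p = 0.064). Atg3 and Atg16l1 had differences of -0.09 and -0.09 and did not pass.

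Genes that mark damaged vacuoles went both ways, with 3 of 9 lower, 3 higher and 3 not passing (median log2 difference 0.06). These shares are near the 31.1% lower and 29.9% higher of all tested genes. The calls of Traf6, higher, and Sqstm1, lower, depended on single libraries. Traf6 lost its call without any 1 library other than siCtrl replicate 2 (limma adjusted p 0.052 to 0.15), and Sqstm1 without siCtrl replicate 2 (limma adjusted p = 0.058). Lgals3, the galectin that binds exposed glycans and co-locates with GBPs, rose to 10535 ± 464 normalized counts in siUhrf2, against 7039 ± 51.9 in siCtrl (SD, n = 3 each; log2 change 0.58, limma adjusted p = 1.50e-07). Lgals9 changed by -0.40 and the autophagy adaptors Optn and Nbr1 by 0.26 and -0.15.

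Of the inflammasome genes downstream of GBPs, 4 of 8 were measured at 1 FPKM or more, of which 3 fell and 1 rose. Below that level, Casp1, Pycard and Nlrp3 averaged 0.251, 0.0151 and 0.00831 FPKM over the 6 libraries, and Il1b was at 0 in all. Of all tested genes 31.1% were lower, 29.9% were higher and 61.0% were called either way. Casp4, the mouse caspase-11 gene that senses cytosolic lipopolysaccharide with the help of GBPs, had 97.6, 97.8 and 112 normalized counts in siUhrf2, against 263, 250.5 and 239 in siCtrl (log2 change -1.29, SE 0.11, limma adjusted p = 2.35e-06). Il18, the gene of a cytokine that caspase-1 processes, changed by -0.89 and Aim2, a cytosolic DNA sensor, by -0.29, while Gsdmd, which encodes the pore-forming gasdermin D, rose by 0.16. The Aim2 call was lost without siUhrf2 replicate 2, siCtrl replicate 2 or siCtrl replicate 3 (limma adjusted p 0.064 to 0.11). Of 6 genes for the lipid anchoring of prenylated GBPs, 3 fell, 2 did not pass and 1 rose (median -0.07). These calls stand beside the same 31.1% lower and 29.9% higher of all tested genes. Fnta, a subunit of the prenyltransferases, changed by 0.35, and Zmpste24, Pggt1b and Icmt by -0.22, -0.24 and -0.20. Among 5 related large GTPases only Atl3, an atlastin of the endoplasmic reticulum, reached 1 FPKM. It changed by -0.08 (limma adjusted p = 0.041), and it lost the call without siUhrf2 replicate 2 (adjusted p = 0.11), siUhrf2 replicate 3 (0.16), siCtrl replicate 1 (0.098) or siCtrl replicate 3 (0.14). The interferon-induced antiviral GTPase gene Mx1 had 5.46, 4.07 and 5.88 normalized counts in siUhrf2, against 14.2, 16.4 and 16.7 in siCtrl. Its relative Mx2 lay the other way without overlap, with 18.6, 18.3 and 14.5 normalized counts in siUhrf2, against 9.85, 10.1 and 11.1 in siCtrl, and both were under 1 FPKM on average.

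Genes next to the members did not share one direction. For each of the 5 clusters, the 3 nearest protein-coding genes on each side with a mean of at least 1 FPKM and outside both families were taken. Among these 30 genes, 10 rose, 11 fell and 9 did not pass the test, with a median log2 difference of -0.05. These shares are near the 31.1% lower and 29.9% higher of all tested genes. Beside Gbp2, Gbp3 and Gbp7, 5 of 6 rose, among them Kyat3 at 0.29, Pkn2 at 0.21 and Gtf2b at 0.13, and Pdlim5 changed by -0.25. Tspan5 and Rap1gds1, which lie 3622 and 3455 kb away, rose by 0.28 and 0.21. Gtf2b lost its call without any 1 library other than siCtrl replicate 2 (limma adjusted p 0.059 to 0.17), Rap1gds1 without siUhrf2 replicate 2 or 3 (limma adjusted p 0.0501 to 0.052) and Kyat3 without siCtrl replicate 1 (limma adjusted p = 0.051).

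Beside Gbp4, Gbp6 and Gbp10, Lrrc8b rose by 0.20, Pkd2 and Lrrc8d changed by -0.42 and -0.35, and BC005561, Spp1 and Lrrc8c did not pass. BC005561, Pkd2 and Spp1 lie 593, 610 and 675 kb from that cluster. Beside Irgm1, Trim7, which lies 9.76 kb from it, changed by -0.87 (SE 0.063). Mgat1 and Trim41 changed there by -0.47 and -0.32, Rack1 and Zfp62 by 0.19 and 0.11, and Olfr1388 did not pass. Zfp62 lost its call without siUhrf2 replicate 1 or 3 or siCtrl replicate 1 or 2 (limma adjusted p 0.068 to 0.16). Beside Igtp and Irgm2, Mrpl22 and Gemin5 rose by 0.40 and 0.21, Cnot8 changed by -0.20, and Zfp692, Zfp672 and Sh3bp5l did not pass. Beside Iigp1, Chsy3, Smim3, Rbm22 and Dctn4 changed by -0.34, -0.26, -0.16 and -0.15, and Isoc1 and Slc27a6 did not pass. Chsy3, Isoc1 and Slc27a6 lie 840, 1696 and 1763 kb from Iigp1.

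**Figure D5:**
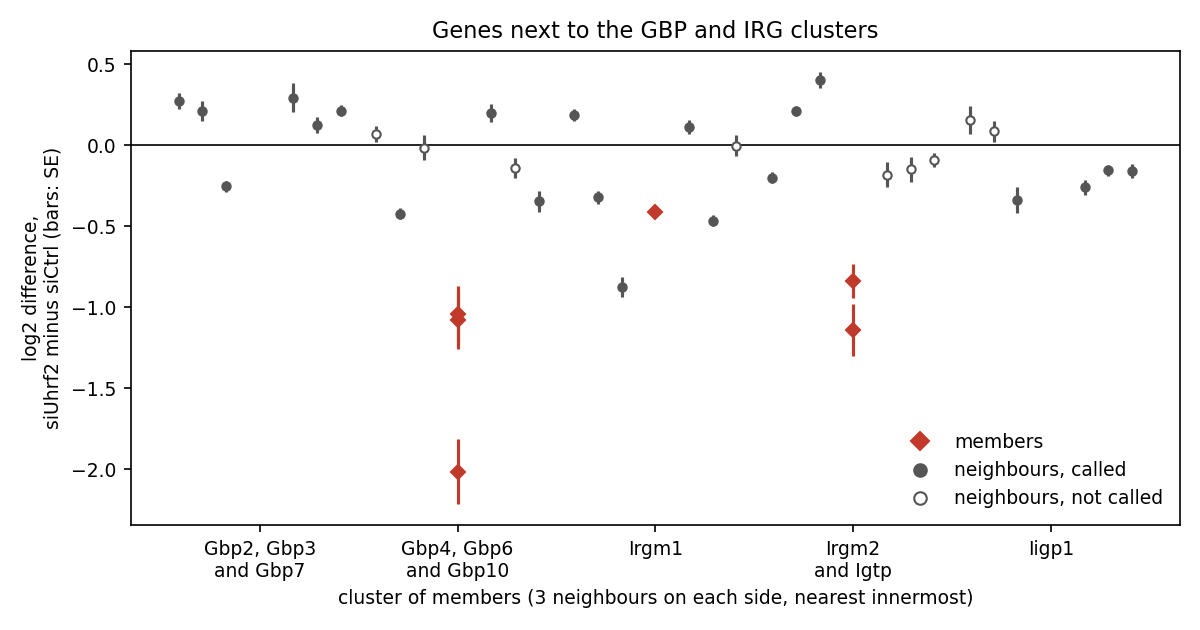
Log2 difference, siUhrf2 minus siCtrl, of the 3 measured neighbours on each side of each cluster (circles, filled where the limma adjusted p is under 0.05) and of the 6 members with a mean of at least 1 FPKM (red diamonds); bars are SE. The neighbours lie between -0.87 (Trim7) and 0.40 (Mrpl22), and members of the Gbp4 and Igtp clusters lie at -0.84 or under. Irgm1, at -0.41, lies within the range of its own neighbours, -0.87 (Trim7) to 0.19 (Rack1).

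Among 9066 other named genes averaging 5 FPKM or more, those nearest to the sum of the 10 members were found by the Euclidean distance between log2 profiles over the 6 libraries, each taken relative to its siCtrl mean. They were Tmcc1, Gca, Plekhb2, Ifi47 and Ube2w, at distances of 0.083, 0.084, 0.085, 0.086 and 0.095. Ifi47 is itself an IRG gene, IRG-47, which was on no list here. It had 1319, 1477 and 1439 normalized counts in siUhrf2, against 2002, 2237 and 2144 in siCtrl, a log2 difference of -0.59 that is a description, since the gene was picked by this profile. The sum itself had a log2 ratio of -0.61, between the difference of Irgm1 and that of the other 9 members together.

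The labelled cell type was checked against markers. The hepatocyte genes Hnf4a, Trf, Krt8 and Krt18 had 83.4, 911, 878 and 1003 FPKM on average over the 6 libraries, and the other secreted hepatocyte proteins were low, with 4.84 FPKM for Ttr, 1.49 for Serpina1a, 0.611 for Alb and 0.132 for Apoa1. Macrophages and other leukocytes express GBPs and IRGs strongly, and 8 of their markers summed to 2.97 to 3.88 FPKM in siUhrf2, against 7.53 to 9.26 FPKM in siCtrl. Only Csf1r and Cd68 reached 1 FPKM, and both fell, by log2 changes of -1.42 and -1.20 (limma adjusted p = 1.53e-06 and 7.71e-05). Adgre1 and Tyrobp were at 0 in all libraries, and Ptprc had 0.113 FPKM on average. The part of these markers in the results was not tested. Stellate cell and fibroblast markers summed to 1.03 to 1.39 FPKM in siUhrf2 and 1.01 to 1.24 FPKM in siCtrl with 0 of 6 at 1 FPKM. Endothelial markers summed to 2.23 to 3.38 FPKM in siUhrf2 and 2.94 to 3.40 FPKM in siCtrl. Cholangiocyte markers summed to 552 to 602 FPKM in siUhrf2 and 302 to 336 FPKM in siCtrl, nearly all of it the keratin gene Krt19 (log2 change 0.99, limma adjusted p = 4.16e-07), while Krt7 changed by -0.16 (limma adjusted p = 0.0042) and Epcam was at 0. In bulk RNA, fewer cells that express a gene and less RNA per cell cannot be told apart.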

How the data were processed

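RNA-seq of AML12 cells gave 3 siUhrf2 and 3 siCtrl libraries, grouped by the labels. The authors deposited a table of 35709 genes with a normalized count and an FPKM value per library. The submitters' processing notes name kallisto 0.44.0, edgeR and the build GRCm38.p6. Neither the annotation release nor the use of strand was stated. The deposited normalized count is a signal and no raw count: between 63.0% and 64.9% of values were whole multiples (within 0.01) of the step of a single read, so no count model was used. That step gave the estimated depths. No per-sample column was left unused.

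Normalized counts were tested as log2(value + 1) with limma 3.58.1 (trend and robust variances, R 4.3.3) over the 11343 genes averaging 1 FPKM or more, and p-values were adjusted by Benjamini-Hochberg with a threshold of 0.05. Fold changes on this scale understate those of low genes. The fit was checked on simulated data. The Uhrf2 level was also tested by an exact permutation test. Sums over paralogs add the values of each library. Alternatives changed the pseudocount, unit, filter, scaling, threshold, variance model, replicate block and the libraries used.

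The members and gene lists were chosen with earlier results of these data known. Named genes were the members, Uhrf2, up to 4 genes per list with the smallest adjusted p, all cluster neighbours, and the 5 nearest profiles. Other list genes were named after their values were seen. Neighbours were taken without genes of both families, and Ifi47 was left out of them on seeing that it is an IRG gene. Sequences came from GENCODE M21 transcripts (GRCm38) and RefSeq promoters (GRCm38.p6). A 31-base word and its reverse complement were counted as the same word, so both strands were compared. Expression of Gm12250 was not analysed here, and 1 gene of the interferon signalling list is counted but not reported by itself.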

Additional observations from a re-analysis of the deposited data

How the results depend on the processing

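Over 20 results and 335 alternative values, 0 reversed and 318 stayed close, meaning a count of calls within 1.5 times, a test on its side of the threshold, or a value within 1 SD between libraries. By this rule a count of calls could not reverse, so the 0 speaks only for the other values. A count within that range can still lose single calls. Of 103 alternative differences of the members, 99 moved by less than 1 SD between libraries of a group (log2 scale) and 4 by more, all on the log2(FPKM + 1) scale, to -1.33 for Gbp4, -0.71 for Igtp, -0.61 for Gbp10 and -0.54 for Irgm2. That scale compresses values near 1 FPKM by its construction. Changes of filter, threshold, variance model or replicate block leave a log2 difference of a member unchanged, so those values could not move. At a mean of at least 5 FPKM only 1 member was tested and called, the family genes outside the members gave 2 calls and the inflammasome list 1, since fewer genes were tested. Of all 9330 genes tested there, 5973 were called. With no filter 15 of the family genes outside the members were tested, Tgtp1 and genes under 1 FPKM included. They gave 9 calls, 8 lower and 1 higher. Of all 24928 genes tested with no filter 7435 were called, 3945 lower and 3490 higher. The single call among related large GTPases (Atl3) became 0 with median-ratio scaling, with upper-quartile scaling and at an adjusted p under 0.01, and ranged between 0 and 1 when 1 library was left out; the cause was not tested. Without Irgm1 the log2 ratio of the IRG sum was -0.94 and that of the sum of all members -1.14. Leaving out 1 library gave 6010 to 7047 genes called, -1.37 to -1.09 for the GBP sum, -0.47 to -0.45 for the IRG sum and -0.65 to -0.57 for all members. Libraries with the same number had deviations correlated at 0.176, 0.236 and 0.0657. Those with different numbers had lower correlations, from -0.219 to 0.0167. The main fit did not take the numbers as pairs, and whether they mark pairs was not tested. With a replicate block 7248 genes were called and the members called stayed at 6. The log2 difference of Gbp4 was then -2.02 with an SE of 0.12, against 0.20 without the block. Gbp2, Gbp3, Gbp7 and Iigp1 were under 1 FPKM and not tested.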
